A study of Canis lupus familiaris with 51 samples.

Results

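ANGPTL1, CLEC3B, WISP2 and SEPP1 are 4 genes grouped here as stromal. Their transcripts were described across canine cutaneous mast cell tumors (MCTs) and set against COL1A1 and COL3A1, the main fibrillar collagens of the dermis. The 4 genes were selected on their array signals, by large drops in the 5 undifferentiated reference tumors of the study, so their low level in those tumors is a description and not a finding. All probes carrying a member's gene name were taken, which gave 8 probes: 3 for ANGPTL1, 2 for WISP2 and 3 for SEPP1. No probe was named CLEC3B, and 1 probe named LOC609596, whose gene ID is that of CLEC3B, was added. The 9 probes stood among 43603 probes and 4 genes among 35619 gene names. Letters after a gene name tell its probes apart, and the probe with the highest mean signal over all tumors (ANGPTL1c, CLEC3Ba, WISP2b, SEPP1c, COL1A1a and COL3A1a) represented its gene.

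The samples were 51 MCTs, each from the central part of a tumor mass taken at surgery and each on 1 one-color Agilent array, from dogs of either sex, aged 3 to 14 years and of many breeds. They were whole tumor pieces, so a low stromal transcript can reflect fewer stromal cells or less RNA per cell, and these cannot be told apart. The submitters' labels gave sex, age and breed but no tumor class. A list in the study's supplement names reference cases, and by case number 13 of the tumors were listed as differentiated and 4 (T9.1, T57.1, T73 and T90) as undifferentiated. 1 more undifferentiated entry of the list matched no label, and the tumor named LM0, which no label ties to a class, was kept apart as unclear. These 18 tumors are described by their own values, and the fits of the levels on other genes used the 33 tumors outside the list, whose values had no part in the choice of the genes. Each tumor came from a different case. The mast cell markers KIT, MS4A2, FCER1A, CMA1 and HPGDS, were well above background on 51 of 51 arrays. Between 59.4 and 74.8% of spots were well above background on an array, and the log2 profiles of any pair of tumors correlated at 0.907 to 0.988.

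ANGPTL1 encodes a secreted angiopoietin-like glycoprotein made by vascular and connective tissue cells. CLEC3B encodes tetranectin, a C-type lectin of plasma and extracellular matrix that binds plasminogen. WISP2, now CCN5, encodes a matricellular protein of the CCN family that lacks the C-terminal domain of its relatives. SEPP1, now SELENOP, encodes selenoprotein P, the plasma carrier that delivers selenium from liver to other tissues and that is also made by stromal cells and macrophages. Fibroblasts of the skin are not one population: those that deposit fibrillar collagen during remodeling and those of resting or adventitial connective tissue express different secreted proteins. MCTs often hold collagen bundles and other stroma between the mast cells.

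The probes shown next are those whose sequence bears on what was measured. ANGPTL1a and ANGPTL1b are both named for ANGPTL1 but were above background in different numbers of tumors, the CLEC3B probe is shown because its name in the files was not that of the gene, and SEPP1a lies in a stretch of histidine codons, here in capitals, a feature for which selenoprotein P is known. Each was 60 bases long and held at least 1 forward reading frame with no stop codon.
ANGPTL1a: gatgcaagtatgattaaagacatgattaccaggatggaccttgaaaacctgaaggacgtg
ANGPTL1b: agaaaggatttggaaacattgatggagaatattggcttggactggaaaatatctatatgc
CLEC3Ba: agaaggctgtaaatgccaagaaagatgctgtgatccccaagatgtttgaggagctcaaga
SEPP1a: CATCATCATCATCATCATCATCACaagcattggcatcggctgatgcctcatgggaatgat
By the array's own annotation, which named no genome build or strand, ANGPTL1a lay at chr7:23893602-23893661 and ANGPTL1b at chr7:23905678-23907443, a span of 1766 bases for 60 bases of probe. The CLEC3B probe lay at chr20:46327977-46332607, a span of 4631 bases, so by these positions both of the latter probes join separate blocks of the genome, as a probe across an exon junction does. SEPP1a lay at chr4:70161876-70161935, and the run of capitals in it holds 8 codons. The 2 probes of WISP2 lay at chr24:35145819-35145878 and chr24:35146436-35146495. Probes of 1 gene moved together over the 51 tumors: ANGPTL1b and ANGPTL1c correlated at 0.991, the WISP2 pair at 0.893 and the SEPP1 probes at 0.965 to 0.985. ANGPTL1a, which correlated with the other ANGPTL1 probes at 0.847 and 0.859, was well above background on 14 of 51 arrays, against 39 for ANGPTL1b and 41 for ANGPTL1c.

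The levels of the 4 genes varied widely across the tumors. Values are log2 normalized signals, on which 1 unit is a doubling, and the signal of a probe depends on its sequence, so levels are compared between tumors and never between genes. CLEC3B ranged from 1.81 in T49 through a median of 9.77 to 12.0999 in T102, and it was well above background on 48 of 51 arrays. ANGPTL1c ranged from 1.60 in T9.1 through 5.90 to 8.70 in T50. WISP2b ranged from 6.22 in T114.1 through 11.80 to 14.37 in T100 and was well above background in all 51, which is a 285-fold range. SEPP1c ranged from 11.74 in T114.1 through 14.85 to 16.46 in T113, a 26.4-fold range. Among the 29918 probes that were well above background on at least 26 arrays, the standard deviation over the 33 tumors outside the list, which leaves out those that chose the genes, lay at the percentile 98.3 for CLEC3B, 96.5 for ANGPTL1c, 96.2 for WISP2b and 84.6 for SEPP1c. COL1A1a spanned 12.22 to 16.88 and COL3A1a 12.63 to 16.99, and both were lowest in T130 and highest in T102. Their standard deviations over the 33 lay at the percentiles 87.7 and 86.8, and those of the probes COL1A1b and COL1A1c at 96.1 and 95.3.

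**Figure D1:**
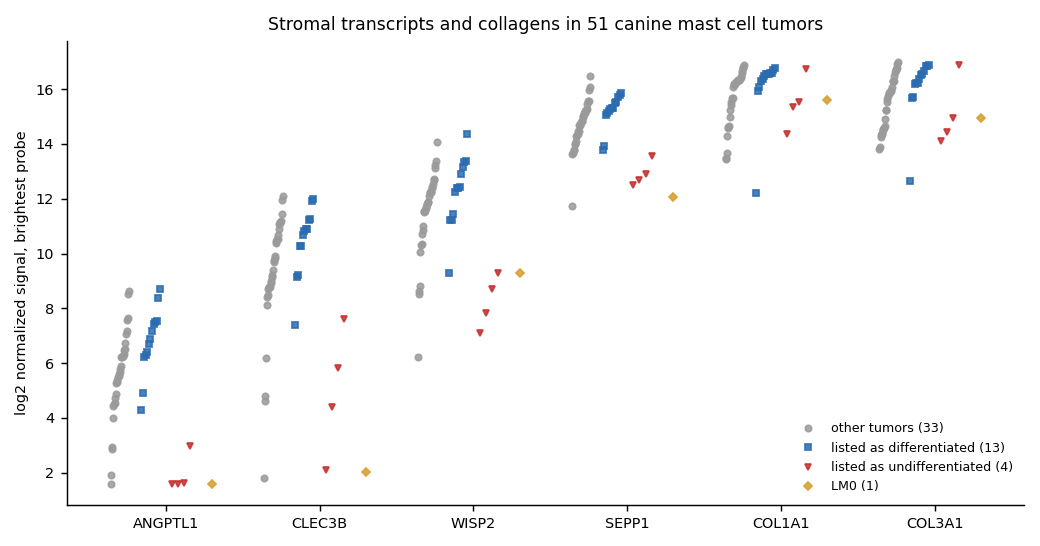
Log2 normalized signal of the brightest probe of each gene in 51 MCTs, 1 point per tumor, split into tumors outside the study's reference list, tumors listed as differentiated or as undifferentiated, and LM0. Members of the listed undifferentiated tumors lie at the low end for the 4 genes, while COL1A1 and COL3A1 of T57.1 lie at 16.72 and 16.86, near the top, and those of the other 3 between 14.10 and 15.53; heights are not comparable between genes.

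The values that chose the genes are given here for the brightest probe of each gene. ANGPTL1c read 1.60 in T9.1, 1.61 in T57.1, 1.61 in T73, 2.99 in T90 and 1.61 in LM0, and none of these 5 signals was well above background. In the 13 tumors listed as differentiated it ran from 4.31 through a median of 6.87 to 8.70. The ranges of the listed tumors did not overlap for ANGPTL1c, and 4 of the 33 other tumors lay below the highest of the 4. CLEC3B read 7.61, 2.09, 4.40 and 5.83 in T9.1, T57.1, T73 and T90 and 2.04 in LM0, against 7.39 to 12.00 with a median of 10.81 in the 13. WISP2b read 8.71, 7.84, 7.12 and 9.30, and 9.27 in LM0, against 9.29 to 14.37 with a median of 12.39. For both genes 1 of the 13 tumors lay below the highest of the 4, so the ranges met at their edge. SEPP1c read 13.55, 12.88, 12.49 and 12.70, and 12.05 in LM0, against 13.78 to 15.87 with a median of 15.31, without overlap. The tumors just on either side of these edges were T9.1 at 7.61 and the lowest of the 13 at 7.39 for CLEC3B, and T90 at 9.30 and T130 at 9.29 for WISP2b. The other probes were less uniform. WISP2a read 8.52 in T57.1, the highest of the 4, and 9 of the 33 other tumors lay below that. ANGPTL1a read 3.75 in LM0, not well above background. ANGPTL1b, SEPP1a and SEPP1b had no overlap between the 4 and the 13, while ANGPTL1a and WISP2a each had 1 of the 13 below the highest of the 4. As the tumors of the reference list chose the genes, overlap or its lack is a description, and the share of all probes without overlap was not determined.

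Against the 13 tumors listed as differentiated, the collagens were also low in 4 of those 5 tumors, and T57.1 was the exception. COL1A1a read 14.38, 16.72, 15.35 and 15.53 in T9.1, T57.1, T73 and T90 and 15.60 in LM0, against a median of 16.54 in the 13 tumors listed as differentiated. COL3A1a read 14.10, 16.86, 14.42 and 14.95, and 14.93 in LM0, against a median of 16.36. T9.1, T73, T90 and LM0 lay below 12 of the 13 for both collagens, and T57.1 lay above 12 of them. Against the 33 tumors outside the list they were less low. The first quartile of the 33 was 15.23 for COL1A1a and 14.58 for COL3A1a. T90 and LM0 lay above it for both collagens, T73 for COL1A1a alone and T9.1 for neither. T57.1 was thus among the tumors richest in collagen transcript while its ANGPTL1 and CLEC3B signals were not well above background. T130, listed as differentiated, had the lowest collagen signals of the series and was also at or near the low end of the 13 for the 4 genes, with 4.31 for ANGPTL1c, 9.15 for CLEC3B, 9.29 for WISP2b and 13.94 for SEPP1c. T114.1, outside the list, had COL1A1a at 16.31 and COL3A1a at 16.71 together with the lowest WISP2b and SEPP1c of all tumors, a CLEC3B of 4.63 and an ANGPTL1c of 2.87 that was not well above background. T49 had COL1A1a at 16.33, with CLEC3B at 1.81 and ANGPTL1c at 1.91, neither well above background. The medians over the 51 tumors were 16.25 for COL1A1a and 15.90 for COL3A1a, so the COL1A1a of T114.1 and T49 was near the median. T113 had less collagen transcript, with COL1A1a at 14.63 and COL3A1a at 15.22, and the highest SEPP1c of the series together with ANGPTL1c at 7.59, CLEC3B at 11.45 and WISP2b at 14.06.

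To ask whether the 4 genes follow the amount of collagen-producing stroma or another feature of the tumor, 2 scores were made: a collagen score, the mean of the centered log2 levels of COL1A1 and COL3A1, and a proliferation score, the same over 15 measured genes of mitosis and DNA replication such as TOP2A, BUB1B and AURKA. In the 33 tumors outside the list the collagen score ran from -2.06 to 1.21 and the proliferation score from -1.77 to 1.81, and the scores had a correlation of 0.0786 with each other over these tumors. The 4 listed undifferentiated tumors had proliferation scores of 1.59 to 2.14 and LM0 of 2.58, against -1.95 to 0.67 in the 13 listed as differentiated. The level of every probe was fitted on both scores together with limma, and a probe was called at a Benjamini-Hochberg adjusted p under 0.01 over all 43603 probes.

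On the collagen score 0 of the 9 member probes were called, where 0.507% of all probes were called higher. The slopes of the 4 genes were all above 0 but within their error. A unit of collagen score went with 0.30 log2 units for ANGPTL1c (95% interval -0.23 to 0.83), 0.34 for CLEC3B (-0.25 to 0.92), 0.33 for WISP2b (-0.09 to 0.75) and 0.17 for SEPP1c (-0.08 to 0.42), and their limma adjusted p ran from 0.655 to 0.819. The lowest p of a member was that of WISP2a, with a slope of 0.29 and an interval of 0.05 to 0.53 (p = 0.0185, limma adjusted p = 0.333). Over all probes, 4478 had an unadjusted p under 0.05 on this score. None of the intervals reached a slope of 1, which is about that of the collagens themselves by construction (1.02 for COL1A1a and 0.98 for COL3A1a). Other collagens that are no part of the score were called on it: COL5A1 rose by 1.18 and COL5A2 by 0.96 per unit (limma adjusted p = 9.16e-08 and 8.25e-08), and COL1A2 by 0.49 (adjusted p = 1.22e-10). COL12A1 and COL6A1, at 0.45 and 0.36, were not called and lay within the intervals of ANGPTL1c, CLEC3B and WISP2b.

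On the proliferation score 6 of the 9 member probes were called lower, where 1.15% of all probes were called lower. The study picked its reference tumors by histological grade and mitotic index. Genes selected for a drop in such tumors were thus tied to proliferation by the selection, and these calls are not independent of it. CLEC3B fell by 1.68 log2 units per unit of score (SE 0.285, limma adjusted p = 0.000224), WISP2b by 1.22 (SE 0.204, adjusted p = 0.000186) and SEPP1c by 0.63 (SE 0.121, adjusted p = 0.0012), and WISP2a, SEPP1a and SEPP1b were called as well. The 3 ANGPTL1 probes were not called: their slopes were -0.96, -0.90 and -0.60, with limma adjusted p of 0.0177 for ANGPTL1c, 0.0129 for ANGPTL1b and 0.0707 for ANGPTL1a. ANGPTL1c was well above background in 28 of the 33 tumors, which limits how far a fall could be followed. COL1A1a and COL3A1a had slopes of 0.02 and -0.02 on the proliferation score (limma adjusted p = 0.882 for both).

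These calls leaned on the tumors with the highest proliferation score. The 33 scores left their widest gap between 0.47 and 1.08, with 26 tumors below it and 7 above, and without those 7 tumors 0 of the 9 probes were called, the slopes being -0.82 for CLEC3B, -0.90 for WISP2b, -0.54 for SEPP1c and -0.24 for ANGPTL1c (limma adjusted p = 0.214, 0.109, 0.166 and 0.824). Arrays were scanned in 9 sessions, and with session as a block 1 of the 9 probes was called, CLEC3B, at a slope of -1.70, while WISP2b stood at -0.99 and SEPP1c at -0.63 (limma adjusted p = 0.0284 and 0.0148). With sex and age as covariates 2 of the 9 were called, CLEC3B and WISP2a.

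**Figure D2:**
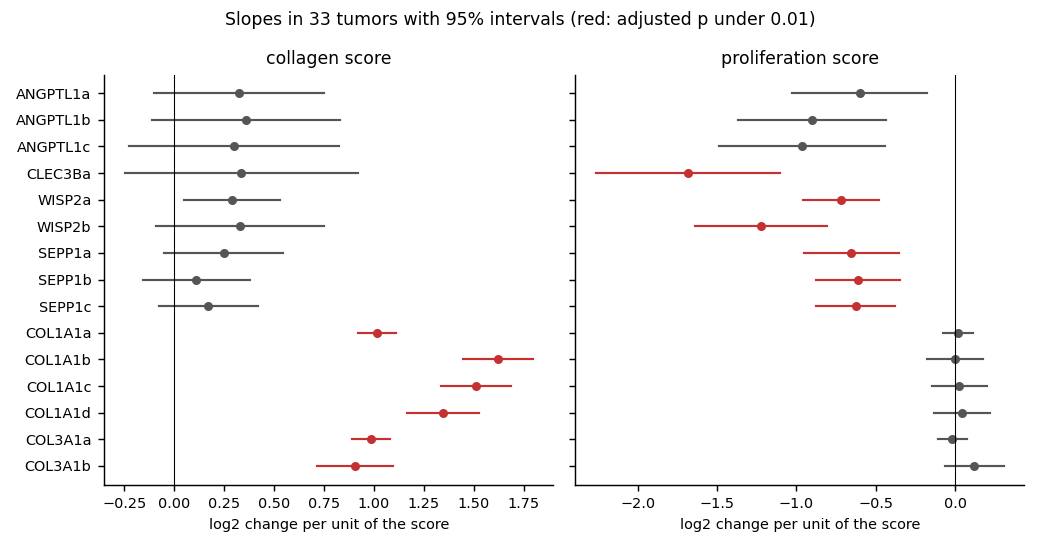
Slopes of the 9 member probes and of the 6 COL1A1 and COL3A1 probes on the collagen score (left) and the proliferation score (right) from 1 joint fit in 33 tumors, as log2 units per unit of score; points are estimates, bars 95% intervals, and red marks an adjusted p under 0.01. Member intervals on the left stay below 1, and on the right the 9 member slopes lie between -1.68 and -0.60 while the collagen slopes lie near 0.

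Because of that gap, correlations and their tests are given within the 26 and within the 7 tumors, for a family of 19 pairs in each (permutation tests, 2-sided, exact in the 7). In the 26 tumors of lower score, WISP2, SEPP1 and CLEC3B moved together: Pearson's r was 0.661 for CLEC3B with WISP2 (Spearman's rho 0.740), 0.726 for CLEC3B with SEPP1 (rho 0.742) and 0.615 for WISP2 with SEPP1 (rho 0.700), with permutation p of 4e-05, 4e-05 and 0.00088 for r and adjusted p of 0.000253, 0.000253 and 0.00418. Without the 2 tumors farthest from the median of the first gene these r were 0.614, 0.691 and 0.673. ANGPTL1 was tied less closely to the others, with r of 0.466 to CLEC3B, 0.320 to WISP2 and 0.436 to SEPP1 (permutation p = 0.0162, 0.111 and 0.0264, adjusted p = 0.0308, 0.14 and 0.0418), and these fell to 0.317, 0.291 and 0.301 without the 2 outermost tumors. Its Spearman's rho with the 3 genes was 0.381, 0.309 and 0.251 (permutation p = 0.0553, 0.125 and 0.217, adjusted p = 0.0785, 0.159 and 0.25), so the relation of ANGPTL1 to CLEC3B and SEPP1 rested on those tumors.

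The proliferation score stayed related to 3 of the 4 genes within the 26 tumors. Its r was -0.498 with CLEC3B, -0.584 with WISP2 and -0.555 with SEPP1 (rho -0.494, -0.514 and -0.557, permutation p = 0.00971, 0.00142 and 0.00351 for r, adjusted p = 0.0205, 0.0054 and 0.0111), and -0.335, -0.435 and -0.335 without the 2 tumors farthest from the median score. For ANGPTL1 the r was -0.152 (rho -0.0024, permutation p = 0.458 and 0.992), and it was 0.160 without those 2 tumors. In the same tumors COL3A1 was also related to 3 of the genes, which the pooled fit had not shown as a call: r was 0.513 with CLEC3B, 0.488 with WISP2 and 0.438 with SEPP1 (rho 0.495, 0.492 and 0.4995, permutation p = 0.00804, 0.00863 and 0.0261 for r, adjusted p = 0.0205, 0.0205 and 0.0418), and 0.544, 0.495 and 0.473 without the 2 outermost tumors. COL3A1 with ANGPTL1 had an r of 0.331 (permutation p = 0.0981, adjusted p = 0.133), which was 0.547 without the 2 outermost. With COL1A1 the r of the 4 genes were 0.230 to 0.371, with adjusted p of 0.0898 to 0.27. The rho with COL1A1 were 0.201 for ANGPTL1, 0.444 for CLEC3B, 0.376 for WISP2 and 0.404 for SEPP1 (permutation adjusted p = 0.343, 0.0415, 0.0785 and 0.0648). Without the 2 outermost tumors the r with COL1A1 were 0.381, 0.486, 0.435 and 0.323 in the same order. COL1A1 and COL3A1 correlated with each other at 0.902.

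Among the 7 tumors above the gap, members were low and variable: CLEC3B ran from 1.81 through a median of 6.17 to 9.41, against 8.13 to 12.0999 with a median of 10.15 in the 26, WISP2b from 6.22 through 10.07 to 12.67 against 8.54 through 12.00 to 14.06, SEPP1c from 11.74 through 13.78 to 15.21 against 13.67 through 14.92 to 16.46, and ANGPTL1c from 1.61 through 4.00 to 5.78 against 2.93 through 6.21 to 8.62. The ranges overlapped for all 4 genes. In these 7 tumors the r of the 4 genes with COL1A1 and COL3A1 were -0.155 to 0.0727, and no pair of the 19 passed the adjusted threshold of 0.05, the lowest exact permutation p being 0.024 for ANGPTL1 with CLEC3B (r = 0.847, adjusted p = 0.232). Whether the relation to COL3A1 differed between the 26 and the 7 tumors was not tested. A within-session value could be had only for session 5, with 6 of the 33 tumors, of which T104 alone, at a score of 1.08, lay above the gap. There, as a description without a test, r with the proliferation score was -0.713 for ANGPTL1, -0.966 for CLEC3B, -0.945 for WISP2 and -0.988 for SEPP1. The r with the collagen score was 0.134 to 0.469.

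**Figure D3:**
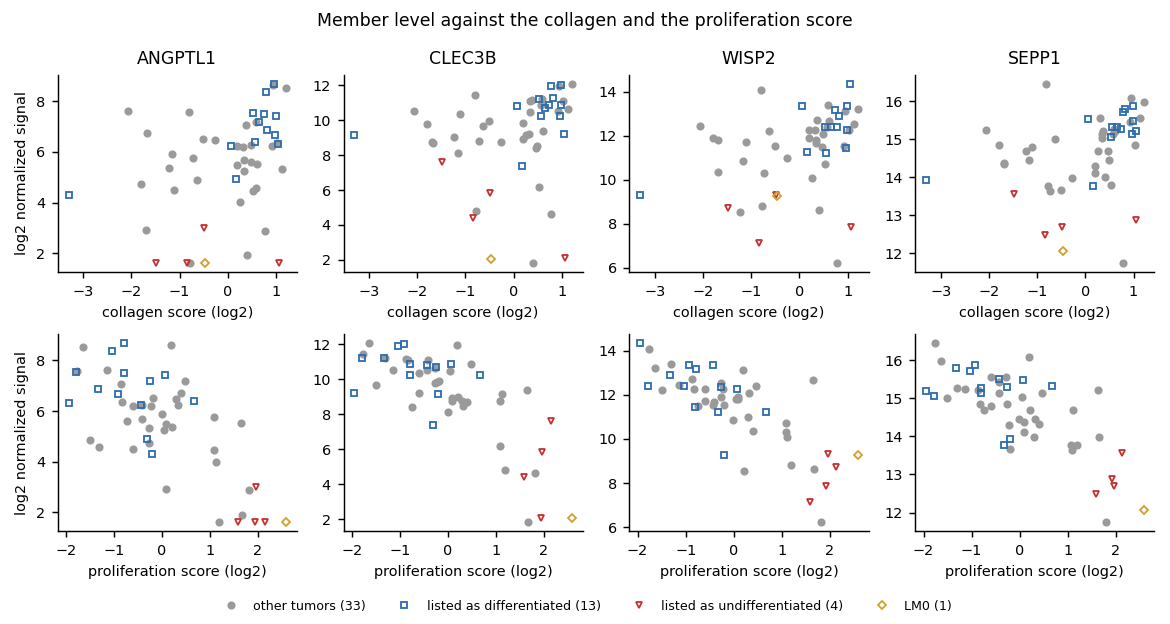
Log2 normalized signal of the 4 genes against the collagen score (top row) and the proliferation score (bottom row), both in log2 units, 1 point per tumor; filled grey points are the 33 tumors outside the reference list and open marks the listed tumors and LM0, which took no part in the fits. Low values occur over much of the collagen axis, and among the 33 the CLEC3B values under 8.126 all lie to the right of the gap at 0.47 to 1.08 on the proliferation axis.

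The distance of a tumor from the line of a gene on the collagen score, fitted in the 33 tumors and given in residual standard deviations, shows how far a low level was below that of tumors of like collagen. The line itself held little of the spread, 1.61% of the variance for ANGPTL1. The 4 listed undifferentiated tumors and LM0 lay below the line for all 4 genes, 20 of 20 values: from -2.54 to -1.501 in the 4 for ANGPTL1, -3.32 to -0.61 for CLEC3B, -2.58 to -1.28 for WISP2 and -2.40 to -1.11 for SEPP1. The largest of these shortfalls for CLEC3B was that of T57.1, the tumor with high collagen. LM0 lay at -2.33, -3.20, -1.30 and -2.93 in the same order. The medians of the 13 listed as differentiated were 0.66, 0.62, 0.45 and 0.57. With the proliferation score added to the line, which then held 31.9 to 53.7% of the variance, 14 of the 20 values were below it. The scores of the 33 tumors ended at 1.81, and T57.1 (1.93), T90 (1.96), T9.1 (2.14) and LM0 (2.58) lay beyond. For these tumors the line was extended past its data, so the count does not measure what proliferation accounts for. T57.1 and T73 were below that line for the 4 genes, T57.1 at -1.72 for ANGPTL1 and -2.71 for CLEC3B, while T9.1 was above it for CLEC3B at 1.57, WISP2 at 0.33 and SEPP1 at 0.66. The genes were chosen for their drop in these tumors, so the distances are a description.

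Other genes of the stroma were read on the same scores. Of 15 measured genes of resting and adventitial fibroblasts, 4 were called lower with proliferation, SFRP4 at -1.28 log2 units per unit of score, SCARA5 at -0.75, PI16 at -0.50 and FBLN1 at -0.41 (limma adjusted p = 0.000757, 0.00874, 0.00259 and 0.00879), and their collagen slopes were not called. SFRP4 is a secreted Wnt-binding protein, PI16 a marker of adventitial fibroblasts and FBLN1 a matrix glycoprotein. The median slope of that list on the proliferation score was -0.29, against -0.02 over all probes, -0.29 for mast cell genes and -0.24 for elastic fiber genes. Within the fibroblast list SFRP1 (0.42), APOD (0.16), CD34 (0.10), PDGFRA (0.08) and DPT (0.01) had proliferation slopes above 0, none of them called. PDGFRA, the growth factor receptor of fibroblasts, was the 1 gene of the list called higher with collagen, at 0.63 (limma adjusted p = 0.000975). Of 7 other collagens, COL1A2, COL5A1, COL5A2 and COL6A3 were called higher with collagen, and COL14A1, a collagen that coats fibrils, was called lower with proliferation at -1.04 (limma adjusted p = 0.00194). Among 7 genes of activated fibroblasts, LOXL2, a collagen cross-linking enzyme, rose with collagen by 0.79 (limma adjusted p = 0.00262) and TNC, tenascin C of remodeling matrix, rose with proliferation by 1.06 (adjusted p = 0.00547). None of 7 elastic fiber genes was called on either score. FBLN5, named after its value was seen, had a proliferation slope of -0.63 (limma adjusted p = 0.0114).

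Markers of other cell types that a tumor piece can hold were called on neither score: 0 of 10 endothelial genes, 0 of 6 of pericytes, 0 of 7 of adipocytes, 0 of 5 of macrophages, 0 of 4 of T cells, 0 of 4 of skeletal muscle, 0 of 5 of epidermis and 0 of 5 of mast cells. Of these, 3 endothelial genes and 1 gene each of pericytes, adipocytes and muscle were well above background on fewer than 26 arrays. Median slopes on the proliferation score were close to 0 for endothelium (-0.0002) and pericytes (0.0015), -0.29 for mast cell genes and 2.18 for epidermal genes, whose single slopes had standard errors of 0.69 to 1.14. The keratin and desmosome genes thus varied strongly between tumors, and their part in the results was not tested. CD14, of the macrophage list and also named after its value was seen, had a proliferation slope of 0.58 (limma adjusted p = 0.0101), and the other 4 macrophage genes had slopes of -0.28 to -0.03.

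**Figure D4:**
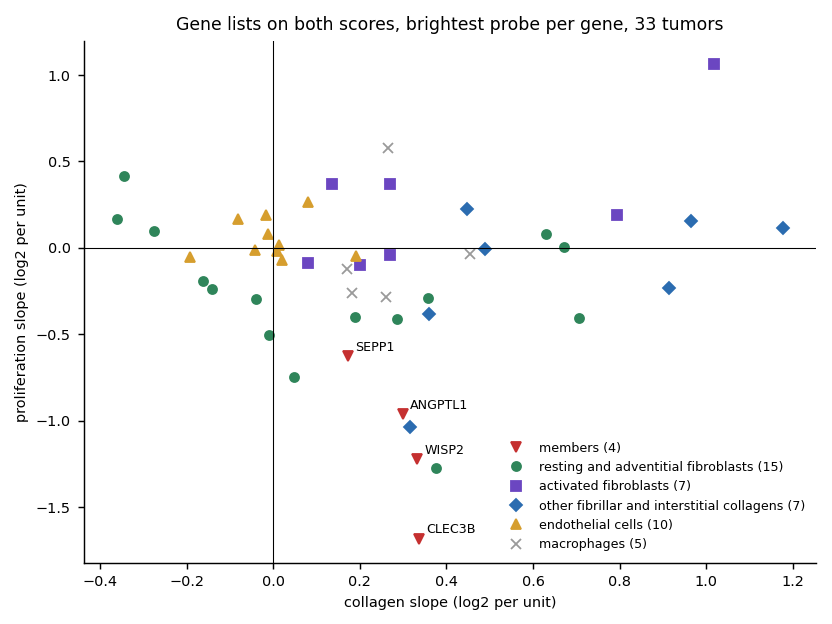
Slope on the collagen score (horizontal) and on the proliferation score (vertical), both in log2 units per unit of score, for the 4 members and for 5 gene lists, 1 brightest probe per gene, in 33 tumors. The members lie low and slightly right of 0, with COL14A1 and SFRP4 near them, while COL5A1, COL5A2 and COL6A3 lie to the right at proliferation slopes of -0.23 to 0.16.

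Among relatives of the 4 genes by family or function 1 gene was called. Of 7 angiopoietin and angiopoietin-like genes, ANGPTL2, a secreted relative of ANGPTL1, rose with collagen by 0.80 (limma adjusted p = 0.000301) with a proliferation slope of -0.30 that was not called. ANGPTL7 was well above background on 11 arrays. Of 3 CCN genes, CYR61, CTGF and NOV, none was called, with proliferation slopes of 0.32, 0.16 and -0.20. Of 6 genes of the plasminogen system, on which tetranectin acts, none was called, but SERPINF2 was well above background on 0 of 51 arrays and PLG on 2, so for these the slope measures background. Among the other 4 the proliferation slopes ran from 0.20 for PLAU, the urokinase, to 1.05 for SERPINE2, a protease inhibitor of the matrix (limma adjusted p = 0.59 and 0.0125). Of 14 selenoproteins and selenoprotein P receptors none was called. Their proliferation slopes ran from -0.24 for TXNRD2 to 1.57 for GPX2 (limma adjusted p = 0.0551 and 0.0701), and that of the receptor LRP2 was 0.04.

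The genes with the most similar pattern were ranked over the 33 tumors by Pearson's r to each member, as a description that carries the gap in proliferation with it. The r was taken for 29917 probes well above background on at least 26 arrays. Ranks count gene symbols, with 1 probe per symbol and no LOC or accession names, so they run over fewer entries than 29917. Nearest to ANGPTL1 were ISLR (0.846), EFEMP1 (0.802), ABCA6 (0.791) and NFIA (0.780), of which ISLR and EFEMP1 encode secreted or surface proteins of connective tissue. Nearest to CLEC3B were COL14A1 (0.901), C1S (0.864), ABCA6 (0.861), PLTP (0.852) and SVEP1 (0.851), where C1S is a complement protease and SVEP1 a large matrix protein. Nearest to WISP2 were ABCA6 (0.808), SEPP1 (0.806), CLEC3B (0.801), PLXDC1 (0.800) and ABCA9 (0.796). Nearest to SEPP1 were CLEC10A (0.839), WISP2 (0.806), CFI (0.804), CXCL12 (0.802) and SVEP1 (0.802), of which CLEC10A is a lectin of macrophages and dendritic cells and CXCL12 a stromal chemokine. The macrophage list had a median r of 0.469 with SEPP1, from -0.265 for CD14 to 0.699 for CSF1R, and the resting and adventitial fibroblast list one of 0.377. These 2 medians were 0.346 and 0.281 for CLEC3B, 0.369 and 0.318 for WISP2, and 0.136 and 0.2825 for ANGPTL1. ABCA6, a lipid transporter of the ABC family, stood in 3 of the 4 sets and had a proliferation slope of -0.69 (limma adjusted p = 0.00121) and a collagen slope of 0.12 (0.894). By the best probe of each gene, COL3A1 ranked 2972 to 4216 and COL1A1 3835 to 4814 among these symbols in likeness to the members.

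Sex, age and breed gave no call for the members. These fits used every tumor with the label, so the low values that chose the genes enter them (T9.1, T90 and LM0 were from males, T57.1 and T73 from females, and T73 from a Labrador Retriever). In 30 female and 19 male dogs 0 of the 9 probes passed an adjusted p of 0.01 with a change of 2-fold or more, where 0.0252% of all probes were called and 2710 had an unadjusted p under 0.05. WISP2b was 11.86 ± 1.498 (SD, n = 30) in females and 10.79 ± 2.03 (SD, n = 19) in males, a difference of -1.07 with an interval of -2.06 to -0.08 (limma p = 0.0349, adjusted p = 0.788), and the ranges overlapped. In the 20 female and 11 male dogs outside the list 0 of the 9 were called too, and the difference of WISP2b was -1.44 (SE 0.522, limma adjusted p = 0.998). Over all 49 the male minus female differences were -0.86 for CLEC3B, -0.72 for ANGPTL1c and -0.50 for SEPP1c, with limma adjusted p of 0.79 to 0.819. With the collagen and proliferation scores as covariates those 3 differences were 0.57, 0.34 and 0.08, so their sign was not stable. The difference of WISP2b kept its sign but not its size, from -1.44 to -0.067 over the main fit and its alternatives. On age in 49 dogs 0 of the 9 probes were called, where 0% of all probes were called and 1066 had an unadjusted p under 0.05, and slopes per year ran from -0.20 for CLEC3B to -0.04 for SEPP1c among the 4 genes (limma adjusted p = 0.9999 for each). Between 9 Boxers and 9 Labrador Retrievers 0 of the 9 probes were called, where 0.0459% of all probes were called and 2131 had an unadjusted p under 0.05. Boxer minus Labrador Retriever was -1.08 for CLEC3B (interval -3.03 to 0.88), -0.60 for WISP2b (-2.45 to 1.25), -0.48 for SEPP1c (-1.49 to 0.53) and -0.11 for ANGPTL1c (-1.92 to 1.69). Outside the list, with 5 Boxers and 7 Labrador Retrievers, the differences were -2.22 for CLEC3B (SE 0.867), -1.21 for WISP2b, -0.93 for SEPP1c and -0.63 for ANGPTL1c, none called (limma adjusted p = 0.673 to 0.905). With 9 dogs a breed, differences of the size of these intervals could not be told from 0.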

How the data were processed

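RNA of 51 canine MCTs was amplified, labeled and hybridized by the authors, 1 tumor per one-color Agilent array, and the scans were read with Feature Extraction 9.5.1.1 by the file headers. The deposited intensity of each spot had its background subtracted within the array and was not normalized between arrays. The authors also deposited linear intensities after limma's quantile normalization of all arrays together, used here as an alternative. Here log2 values of the processed signal were taken, outlier spots (2 to 35 an array) were set to missing, controls were dropped, arrays were quantile-normalized and spots of a probe averaged, with limma 3.58.1 in R 4.3.3, with statmod 1.5.0 and version 1.17.8 of data.table. Figures used matplotlib 3.10.9. Of 2297 names of the form LOC, 1514 were given a symbol through the gene IDs of a RefSeq table for assembly UU_Cfam_GSD_1.0, used for names alone. The file of T80 had been saved again with rounded signals and 31 altered names, so names came from another file. The number of arrays, not read depth, limits the precision.

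The labels put all 51 samples in 1 group. Fits were limma's moderated test with a trend, Benjamini-Hochberg adjusted over 43603 probes. On simulated data with 200 changed probes and independent noise, 185 were recovered for a collagen slope of 1 and 178 for a proliferation slope of 1. For a log2 difference of 2, 189 were recovered for sex and 158 for breed, and 195 for an age slope of 0.5 per year. Smaller changes, such as the collagen slopes of 0.17 to 0.34 of the 4 genes, were not simulated. Correlations used 100000 permutations, and 1e-05 is the smallest p they can give. They were planned over the 33 tumors and are given within the ranges of the proliferation score because the scores left a gap, which was seen in the data. The 4 genes, the gene lists and the tests were chosen with earlier results of these data known, so they lend no independent support. The text names the probes of the 4 genes and of COL1A1 and COL3A1, the 5 most similar genes of each member (1 of them, for ANGPTL1, is not reported here), and the called and defining genes of each list. The samples are separate tumors, 1 array each, so p-values measure the spread between tumors. Alternatives were another normalization or background correction, the authors' table, flagged spots kept, a filter on dim probes, slide or scan session as a block, other scores, covariates and other sets of tumors.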

Additional observations from a re-analysis of the deposited data

How the results depend on the processing

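No paired analysis was possible because all tumors form 1 group. The 0 of 9 collagen calls held under all 16 alternatives tried, and so did the 0 of 9 calls for sex, age and breed under the 12 alternatives of each. Few of all probes were called in the main fits: 0.507% higher on collagen, 0.0252% for sex, 0% for age and 0.0459% for breed. A count of 0 of 9 is near those shares and tells little about the members. Of the 6 of 9 proliferation calls, 1 was left with scan session as a block, 2 with sex and age as covariates and 0 without the 7 tumors above the gap in the proliferation score, an alternative chosen after seeing the data, as were the collagen score from all probes, background outliers or spots not found set to missing, and the sex, age and breed fits without the listed tumors and LM0. Fewer tumors or fewer degrees of freedom enter the fits with the block, the covariates or without the 7 tumors, and the cause was not tested further. Under the other 13 alternatives 5 to 9 were called (7 of the 8 tested where dim probes were left out). No proliferation slope of a member changed sign.

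Differences that passed no threshold changed sign as follows. With both scores as covariates the sex difference was 0.076 for SEPP1c, 0.57 for CLEC3Ba and 0.34 for ANGPTL1c, the age slope was 0.015 for SEPP1c and 0.035 for ANGPTL1c, and the breed difference was 0.30 for ANGPTL1c. Without the listed tumors and LM0 the age slope of ANGPTL1c was 0.047. The breed difference of ANGPTL1c was 0.0066 with slide as a random block. With background outliers set to missing the breed difference was 0.050 for SEPP1c and 0.43 for ANGPTL1c, and the r of COL1A1 over the 33 tumors was -0.10 with ANGPTL1, -0.039 with CLEC3B, -0.044 with WISP2 and -0.034 with SEPP1, where the main values were 0.09, 0.06, 0.08 and 0.08; these span the gap and are given for the sign alone. The distance from the collagen line kept 20 of 20 values below it with the 75th percentile normalization. ANGPTL1a, above background on 14 arrays, and ANGPTL1c in the lowest tumors have only an upper bound. Over all probes the collagen calls numbered 235, against 1349 with all 51 tumors, 646 with a wider collagen score and 453 at an adjusted p of 0.05. The proliferation calls numbered 1255, against 439, 615 and 123 under the alternatives that lost calls in the order above, 825 with background outliers missing, 3711 with 51 tumors and 3290 at 0.05. The breed calls numbered 20, against 8 with scan session as a block or without the listed tumors and LM0 and 13 with background outliers missing, and the sex calls 11, against 7 with normexp.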
